A study of Homo sapiens with 36 samples.

Results

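The 45 mitosis genes described here are transcripts of the proteins that carry a cell into and through division. They were chosen by name, from a list of cyclins, kinases, spindle, kinetochore and cytokinesis genes, with no expression value in the rule. Earlier results of these data were known when this list and the related lists below were drawn up. The counts over these lists are therefore not independent of those results. All 45 had an identifier among the 60725 Ensembl genes of the tables, and all had counts in each of the 36 libraries.

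RNA was sequenced from human breast cell lines in 18 groups of 2 libraries. MCF-10A ER-Src cells are non-transformed mammary epithelial cells that carry v-Src fused to the ligand-binding domain of the estrogen receptor, in all of their groups. They were given ethanol (ETH, non-transformed) or tamoxifen (TAM, transformed), and under each treatment received a control siRNA (Ctrli) or siRNA pools against YAP (YAPi), TAZ (TAZi, gene WWTR1), STAT3 (STAT3i) or JUNB (JUNBi), which makes 10 groups and 20 libraries. MDA-MB-231, a triple-negative breast cancer line, was sequenced in 2 sets by the titles. Set 1 held Ctrli, YAPi, TAZi, siRNAs against YAP and TAZ together (YAPi_TAZi) and against TEAD proteins (TEADi). Set 2 held Ctrli, JUNBi and STAT3i. The study's methods also list AZD0530, an inhibitor of Src-family kinases, beside tamoxifen. They do not say which RNA-seq libraries received it or how long the RNA-seq cells were treated. ER-Src is a line with an engineered oncogene, siRNA lowers a transcript without removing it, and nothing in the labels says whether the 2 libraries of a group came from separate cultures, so p-values measure the spread between these libraries only.

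Mitotic genes are switched on late in the cell cycle. CDK1 bound to cyclin B drives entry, the spindle is built by motors and kinases such as Aurora A, the checkpoint holds cells until every kinetochore is attached, and the anaphase-promoting complex with CDC20 then releases the chromosomes. In resting cells the DREAM complex keeps many of these genes off, and in dividing cells MuvB with B-MYB and then FOXM1 turns them on, through a promoter element named the cell cycle genes homology region (CHR) and CCAAT boxes bound by NF-Y. YAP and TAZ are co-activators that bind DNA through TEAD proteins and are known for driving proliferation, JUNB is an AP-1 subunit, and STAT3 is a signal-activated transcription factor.

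RefSeq promoter windows (GRCh38.p14) were found for 38 of the 45 genes. In the 250 bases before the start, the CHR letters TTTGAA or TTTAAA, on either strand, stood in 28 of 38 windows (73.7%), against 22.1% of 27305 promoters of the same length. CCAAT on either strand stood in 30 of 38 (78.9%), against 33% of all promoters, and 2 or more copies in 19 of 38 (50%), against 10%. CHR letters within 60 bases of the start together with a CCAAT box were found in 17 of 38 (44.7%), against 1.79%. A letter match describes the sequence and says nothing of whether a factor binds there. The following 6 stretches of 110 bases end at the base before the RefSeq start and were chosen to show the arrangement in entry regulators (CCNB1, CCNB2, PLK1, CKS2) and in genes of the midzone (PRC1, KIF20A). They are printed 5′ to 3′ on the strand of the gene, with CCAAT and CHR letters, of either strand, in capitals.
CCNB1, chr5:69167040-69167149, plus strand: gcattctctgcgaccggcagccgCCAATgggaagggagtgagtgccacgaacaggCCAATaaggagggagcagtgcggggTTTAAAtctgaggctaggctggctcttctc
CCNB2, chr15:59105036-59105145, plus strand: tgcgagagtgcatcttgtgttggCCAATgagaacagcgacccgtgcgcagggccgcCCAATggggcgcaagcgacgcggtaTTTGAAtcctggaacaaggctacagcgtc
PLK1, chr16:23678779-23678888, plus strand: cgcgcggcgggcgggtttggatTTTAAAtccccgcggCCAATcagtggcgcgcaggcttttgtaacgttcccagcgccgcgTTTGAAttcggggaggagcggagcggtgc
CKS2, chr9:89311085-89311194, plus strand: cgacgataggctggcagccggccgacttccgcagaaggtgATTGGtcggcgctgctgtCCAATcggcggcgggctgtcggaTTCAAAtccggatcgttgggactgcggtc
PRC1, chr15:90994536-90994645, minus strand: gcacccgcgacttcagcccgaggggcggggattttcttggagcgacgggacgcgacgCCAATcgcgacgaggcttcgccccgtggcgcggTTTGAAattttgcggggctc
KIF20A, chr5:138179002-138179111, plus strand: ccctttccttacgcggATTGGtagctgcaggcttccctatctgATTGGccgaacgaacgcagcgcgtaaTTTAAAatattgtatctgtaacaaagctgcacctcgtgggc
CCNB1 and CCNB2 each have 2 CCAAT boxes in this stretch and 1 CHR downstream of both. In PRC1 a single CCAAT box is followed by a CHR, and PLK1 has 2 CHR matches around its CCAAT box.

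**Figure D1:**
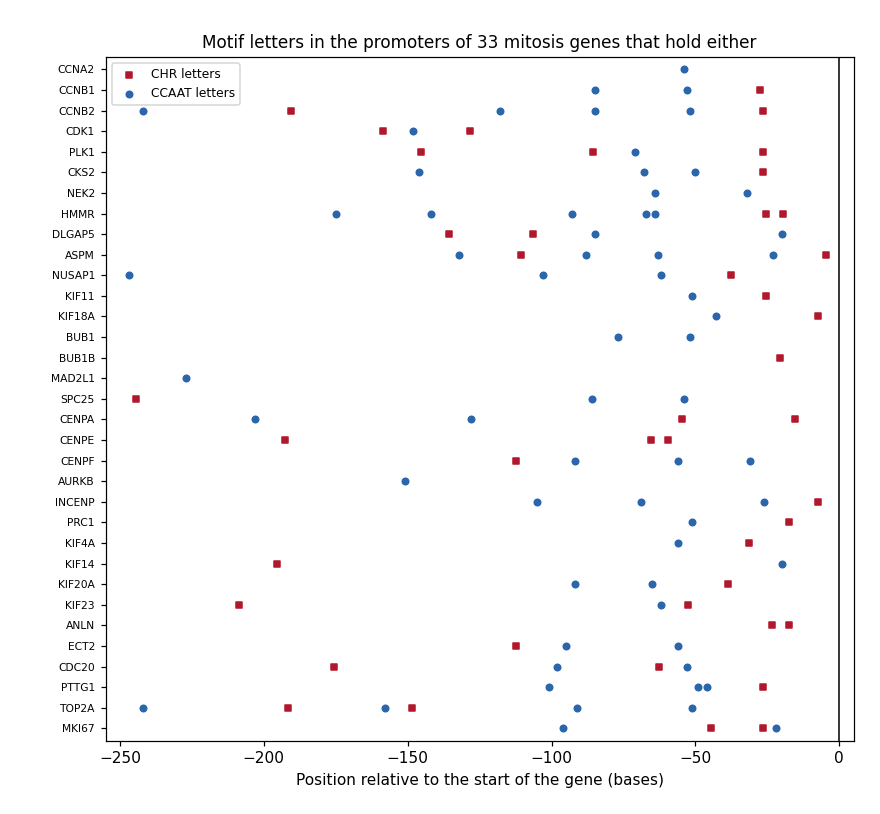
Positions of CHR letters (red squares) and CCAAT letters (blue circles) in the 250 bases before the RefSeq start (horizontal axis, bases, 0 is the start) of the 33 mitosis genes that hold either, one row per gene, grouped by role. In the last 60 bases 19 genes hold a CHR match, and CCAAT letters stand in 30 of the 38 windows searched.

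The targeted transcripts were checked first, as TPM (a level per length, scaled to the same total in each library). YAP1 stood at 38.5 and 26.8 in ETH Ctrli and at 5.10 and 4.74 in ETH YAPi, and at 29.8 and 28.9 against 5.74 and 4.31 under TAM. WWTR1 stood at 6.15 and 6.61 in ETH Ctrli against 1.89 and 2.77 in TAZi, and at 6.59 and 6.44 against 1.28 and 1.40 under TAM. Under TAM, STAT3 stood at 44.2 and 33.8 in Ctrli against 8.67 and 7.80 in STAT3i, and JUNB at 54.4 and 71.1 against 16.4 and 18.9 in JUNBi. JUNB was as low in TAM STAT3i, at 14.4 and 14.9. In ETH the JUNB knockdown was uneven, with 11.9 and 13.0 in Ctrli against 3.90 in JUNBi replicate 1 and 8.55 in replicate 2. In set 1, YAP1 was 4.25 to 7.14 where it was targeted and 25.4 to 56.9 elsewhere among the knockdowns. WWTR1 in set 1 stood at 4.76 and 15.5 in YAPi, 2.00 and 0.57 in TAZi, 4.34 and 2.29 in YAPi_TAZi and 8.61 and 20.2 in TEADi, so that in replicate 1 the combined knockdown was little below YAPi. In TEADi, TEAD1 stood at 8.30 and 18.5, against 15.3 to 36.4 in the other set 1 knockdowns, and TEAD4 at 0 and 0.24. TEAD2 stood at 0.38 and 0.30, below the 3.88 to 7.07 of the others, and TEAD3, at 3.30 and 3.56, overlapped the others (2.95 to 6.48). In set 2, STAT3 stood at 15.4 and 20.8 in Ctrli against 3.07 and 2.75, and JUNB at 31.6 and 18.7 against 6.70 and 7.99.

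The basal keratin KRT5 was at 1012 to 2622 TPM in ER-Src libraries and at 0 in MDA-MB-231, except in the 4 replicate 1 knockdown libraries of set 1, which listed 5.99 to 11.5. Markers of leukocytes (PTPRC, at most 0.08 TPM) and endothelium (PECAM1, at most 1.79) were near 0 in every library. Total expected counts ran from 6419720 to 19161700 per ER-Src library, from 1411304 to 2784605 per set 1 knockdown library and from 7290499 to 18076158 in set 2. Libraries also differed in kind. In set 1 the length minus the effective length that RSEM reports was 48.0 bases in replicate 1 and 74.6 in replicate 2 of every knockdown. The set 1 Ctrli libraries carried almost no reads of 7 RNAs without a poly(A) tail (at most 0.00407% of counts, against 8.71 to 11.8% in the set 1 knockdowns), so their levels are given with no test. Among ER-Src libraries the same length difference was 49.0 in STAT3i and JUNBi and 49.5 in Ctrli, YAPi and TAZi, which cannot be told apart from these knockdowns.

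The mitosis genes together took 0.768% and 0.672% of gene counts in ETH Ctrli and 0.612% and 0.599% in TAM Ctrli. YAPi libraries were lower than both controls of their treatment, at 0.529% and 0.358% in ETH and 0.360% and 0.275% in TAM. TAZi gave 0.543% and 0.488% in ETH and 0.456% and 0.468% in TAM. JUNBi gave 0.518% and 0.367% in ETH and 0.546% and 0.443% in TAM. STAT3i overlapped the controls under both treatments, with 0.839% and 0.736% in ETH and 0.625% and 0.564% in TAM. As summed TPM, the members stood at 1675.8 and 1287.3 in ETH Ctrli and at 1093.6 and 1035.2 in TAM Ctrli. By that measure TAM STAT3i, at 1391.1 and 1219.6, lay above both TAM controls. TAM JUNBi, at 1135.1 and 800.9, overlapped them. In set 1 the share was 0.778% and 0.761% in Ctrli, 0.491% and 0.567% in YAPi, 0.563% and 0.648% in TAZi, 0.247% and 0.262% in YAPi_TAZi and 0.249% and 0.257% in TEADi. The YAPi_TAZi and TEADi libraries lay below all 4 libraries with a single knockdown of YAP or TAZ. In set 2 it was 0.528% and 0.488% in Ctrli, 0.555% and 0.561% in JUNBi and 0.516% and 0.555% in STAT3i. In these bulk samples, fewer dividing cells and less of each transcript per dividing cell cannot be told apart. The paper reports that YAP or TAZ knockout left proliferation of ER-Src cells in high-attachment culture unchanged, with similar results by siRNA. How that bears on these RNA levels was not tested.

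**Figure D2:**
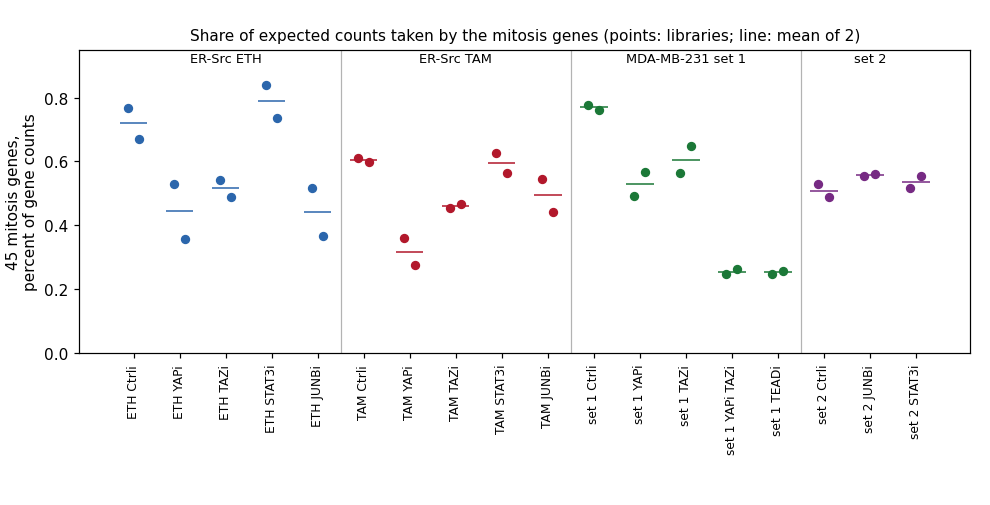
Share of gene counts taken by the 45 mitosis genes (vertical axis, percent) in each of the 36 libraries (points) with the mean of each group of 2 (line). Both YAPi, TAZi and JUNBi points lie below both Ctrli points of their treatment in ER-Src cells, and the YAPi_TAZi and TEADi points of set 1 lie near 0.25%.

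Levels differed between members by over an order of magnitude. In ETH Ctrli the most abundant were CCNB1 (cyclin B1) at 122 ± 25.1 TPM (SD, n = 2), PTTG1 (securin) at 109 ± 22.0 and ANLN (anillin) at 95.8 ± 19.4, whose ranges overlapped, and the least abundant was the kinesin KIF18A at 6.03 ± 1.80. In the set 2 controls PTTG1 led at 626 ± 0.81 TPM, CDC20 followed at 527 ± 43.3, and HMMR, a spindle protein at 0.740 ± 0.396, was lowest.

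YAP knockdown in transformed cells lowered nearly the whole list. CCNB1 stood at 2750 and 3002 normalised counts in TAM Ctrli and at 1513 and 1208 in TAM YAPi, a log2 fold change of -1.07 (SE 0.14, adjusted p = 8.5e-12 in DESeq2's Wald test with Benjamini-Hochberg adjustment over all genes). Its partner kinase CDK1 went from 1362 and 1512 to 929 and 732 (-0.78, SE 0.16). PLK1, which drives entry and centrosome maturation, went from 776 and 753 to 396 and 344 (-1.04, SE 0.18). For each of these genes the YAPi libraries lay below both controls. CDC20, the activator of the anaphase-promoting complex, stood at 1961 and 2030 in controls and 1121 and 890 in YAPi. The Aurora A gene AURKA went from 1340 and 1351 to 817 and 670, and FOXM1 from 677 and 583 to 405 and 342. TOP2A, the decatenating topoisomerase, went from 6575 and 6866 to 3902 and 2474. MKI67, which encodes the Ki-67 antigen, went from 5611 and 4011 to 2163 and 1514, with the wider spread of its controls giving an SE of 0.35. All of these passed the test.

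In all, 42 of 45 mitosis genes fell in TAM YAPi at an adjusted p under 0.01 and none rose, where 10.9% of 14182 tested genes were called in either direction and 5.54% fell. The members' median log2 fold change was -0.99, against 0.008 over all genes tested. The 10 largest falls were in NEK2, a centrosome kinase (-1.48, SE 0.21), MKI67 (-1.38, SE 0.35), the phosphatase CDC25C (-1.32, SE 0.27), the kinetochore protein CENPF (-1.31, SE 0.17), the spindle protein DLGAP5 (-1.29, SE 0.19), CCNB2 (-1.25, SE 0.19), the microtubule depolymerase KIF2C (-1.23, SE 0.19), the checkpoint kinase BUB1 (-1.22, SE 0.17) and the cytokinesis kinesins KIF14 (-1.19, SE 0.15) and KIF20A (-1.14, SE 0.18). By role, falls covered 8 of 9 entry regulators, 10 of 10 spindle and centrosome genes, 4 of 5 checkpoint genes, 5 of 6 kinetochore genes, 3 of 3 genes of the chromosomal passenger complex, 7 of 7 midzone and cytokinesis genes, 3 of 3 anaphase genes, and TOP2A and MKI67. The 3 that were not called were CDC25B at 785 and 651 in controls and 777 and 794 in YAPi (0.13, SE 0.17), BUB3 at 2545 and 2925 against 2174 and 2086 (-0.35, SE 0.12, adjusted p = 0.033), and SPC25, with at most 143 normalised counts in a control (-0.99, SE 0.40, adjusted p = 0.074). BUB3 is a checkpoint protein, SPC25 a subunit of the NDC80 complex of the kinetochore, and CDC25B a phosphatase that activates CDK1. Within replicate 1 the median log2 ratio was -0.74 and within replicate 2 it was -1.18. With a lone control or knockdown library the count was 16 without Ctrli replicate 1, without Ctrli replicate 2 or without YAPi replicate 2, and 36 without YAPi replicate 1.

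In non-transformed cells, 33 of 45 fell with YAPi and none rose, where 11.4% of 15005 tested genes were called and 6.36% fell. The median log2 fold change was -0.75, against -0.004 over all genes tested. CCNB1 stood at 3645 and 3211 normalised counts in ETH Ctrli and 2149 and 1629 in YAPi (-0.86, SE 0.14). MKI67 stood at 5019 and 4576 against 2363 and 1681 (-1.25, SE 0.15) and PLK1 at 750 and 682 against 502 and 411 (-0.65, SE 0.18). AURKA was 1547 and 1363 in Ctrli and 1094 and 827 in YAPi, CDC20 was 2567 and 2272 against 1515 and 1381, and FOXM1 was 683 and 610 against 467 and 378. The 10 largest falls among the called genes were in MKI67, CDC25C (-1.13), KIF20A (-1.07), DLGAP5 (-1.04), KIF2C (-1.04), NEK2 (-1.02), CCNB2 (-0.99), BUB1B (-0.94), BUB1 (-0.94) and AURKB (-0.94). CDK1 stood at 1610 and 1372 in Ctrli, 1360 in YAPi replicate 1 and 842 in replicate 2 (-0.44, SE 0.36) and was not called. TOP2A, at 7093 and 6200 against 4921 and 2848 (-0.78, SE 0.40), was not called either, nor were BUB3 (2935 and 2739 against 2575 and 2165) and CDC25B (692 and 714 against 749 and 752). Replicate 2 was the lower YAPi library in ETH for every member but CDC25B, with a median log2 ratio of -0.94 within replicate 2 and -0.60 within replicate 1. The count was 3 without Ctrli replicate 1, 11 without Ctrli replicate 2, 37 without YAPi replicate 1 and 16 without YAPi replicate 2, and edgeR's quasi-likelihood test called 21.

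All 33 genes that fell with YAPi in ETH also fell in TAM (78.6% of the TAM list), in comparisons that share no library. With 42 of the 45 members called in TAM, most of any 33 members would be shared whatever ETH showed. The overlap therefore cannot tell whether the treatments agree on which members fell. For none of the siRNAs is the overlap over all genes given here. The 9 called under TAM alone were ANLN, ASPM, CDK1, CENPF, KIF11, KIF18A, NDC80, NUF2 and TOP2A. The difference between treatments was tested as an interaction, in which 0 of 45 genes were called by DESeq2 and 0 by edgeR, and 0 had an unadjusted p under 0.05, where 0.496% of 15721 genes were called. The members' median interaction was -0.21 (log2), and 41 of 45 estimates were below 0. Without ETH YAPi replicate 1 the median was 0.07, and without TAM YAPi replicate 2 it was -0.01. The smallest unadjusted p-values were those of PLK1 (-0.41, SE 0.24, unadjusted p = 0.089 in DESeq2), NEK2 (-0.46, SE 0.29) and CDK1 (-0.36, SE 0.27).

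**Figure D3:**
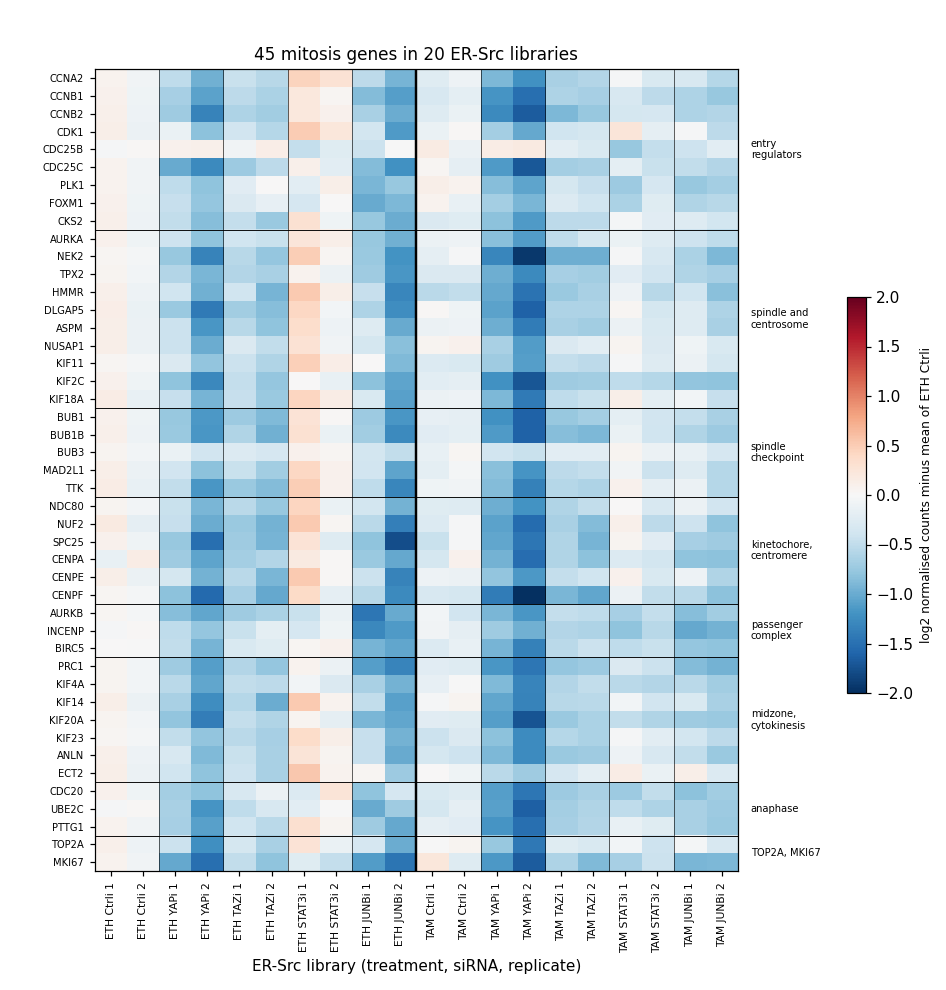
Log2 normalised counts of the 45 mitosis genes (rows, grouped by role) in the 20 ER-Src libraries (columns, ETH left and TAM right), minus the mean of the 2 ETH Ctrli libraries, blue lower and red higher. The YAPi columns are the bluest under TAM, where 42 genes fell, CDC25B and BUB3 stay pale, and the STAT3i columns are pale.

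TAZ knockdown lowered fewer of the genes under TAM. 15 of 45 fell and none rose, where 3.53% of 13442 tested genes were called and 1.74% fell. The median log2 fold change was -0.41, against -0.004 over all genes tested, and all 45 estimates were below 0. CCNB1 stood at 2750 and 3002 normalised counts in TAM Ctrli and 2241 and 2166 in TAZi (-0.38, SE 0.11, adjusted p = 0.00981 in DESeq2). MKI67 stood at 5611 and 4011 against 3129 and 2604 (-0.75, SE 0.16), and CDC20 at 1961 and 2030 against 1463 and 1533 (-0.41, SE 0.11). TAZi libraries lay below both controls for each of these. The 10 largest falls among the called genes were in NEK2 (-0.87, SE 0.15), MKI67, the checkpoint kinase BUB1B (-0.66, SE 0.14), CENPF (-0.64, SE 0.09), CCNB2 (-0.62, SE 0.15), DLGAP5 (-0.58), ASPM (-0.57), KIF14 (-0.56), BUB1 (-0.55) and PRC1, which bundles midzone microtubules (-0.51). CDK1 (1362 and 1512 against 1126 and 1160), PLK1 (776 and 753 against 563 and 517), AURKA (1340 and 1351 against 1019 and 1133), TOP2A (6575 and 6866 against 5610 and 5398), FOXM1 (677 and 583 against 532 and 492), BUB3 (2545 and 2925 against 2444 and 2461) and CDC25B (785 and 651 against 609 and 568) did not pass. Each of these still had both TAZi libraries below both controls. The median was -0.40 within replicate 1 and -0.41 within replicate 2. The count was 5 with edgeR, 4 with the replicate number as a block, 0 in 1 fit over all ER-Src groups, 3 without Ctrli replicate 1, Ctrli replicate 2 or TAZi replicate 1, and 1 without TAZi replicate 2.

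In ETH, 28 of 45 fell with TAZi and none rose, where 5.53% of 13253 tested genes were called and 2.78% fell. The median was -0.60, against -0.013 over all genes tested. CCNB1 stood at 3645 and 3211 in Ctrli and 2378 and 2217 in TAZi (-0.58, SE 0.12), TOP2A at 7093 and 6200 against 5181 and 4242 (-0.50, SE 0.12) and MKI67 at 5019 and 4576 against 3421 and 2737 (-0.64, SE 0.13). The 10 largest falls among the called genes were in NUF2 of the NDC80 complex (-0.86, SE 0.21), CENPF (-0.84, SE 0.12), BUB1 (-0.82), the checkpoint kinase TTK (-0.82), DLGAP5 (-0.79), BUB1B (-0.78), KIF14 (-0.78), the kinetochore motor CENPE (-0.72), PRC1 (-0.69) and AURKB (-0.68). CDC20 was 2567 and 2272 in Ctrli and 1928 and 2219 in TAZi (-0.23, SE 0.13), and PLK1 was 750 and 682 against 610 and 716 (-0.12, SE 0.17), so that PLK1 overlapped its controls. CDK1 (1610 and 1372 against 1146 and 1002), AURKA (1547 and 1363 against 1106 and 1061), FOXM1 (683 and 610 against 526 and 576), BUB3 (2935 and 2739 against 2352 and 2236) and CDC25B (692 and 714 against 670 and 773) were not called. Of the 15 genes lower in TAM, 14 were also lower in ETH (93.3% of the TAM list and 50% of the ETH list), and CDC20 was called under TAM alone. The count in ETH was 18 with the block, 11 with edgeR, 5 in 1 fit over all groups, 1 without Ctrli replicate 1, 8 without Ctrli replicate 2, 20 without TAZi replicate 1 and 3 without TAZi replicate 2. The interaction of TAZi with TAM called 0 of 38 tested members in DESeq2 and 0 in edgeR, where 1.64% of 4328 genes were called, with a median of 0.14 and 1 gene at an unadjusted p under 0.05. That gene was KIF23, a centralspindlin motor (0.35, SE 0.17), followed by CENPE (0.38, SE 0.20) and HMMR (0.44, SE 0.24). YAPi and TAZi share their control libraries within a treatment, so their values are set side by side only.

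JUNB knockdown lowered 9 of the 45 genes under TAM and 12 in ETH, where the median change was larger and the SEs wider. Under TAM, 9 of 45 fell and none rose, where 6.71% of 13375 tested genes were called and 3.95% fell. The median was -0.37, against 0.020 over all genes tested. The 9 were MKI67 (-0.89, SE 0.15), INCENP, the scaffold of the passenger complex (-0.84, SE 0.18), PLK1 (-0.79, SE 0.18), PRC1 (-0.64, SE 0.12), NEK2 (-0.63, SE 0.17), KIF2C (-0.58, SE 0.14), BIRC5, which encodes survivin (-0.56, SE 0.15), KIF20A (-0.47, SE 0.12) and CDC20 (-0.46, SE 0.13). By role they were 2 of 3 passenger complex genes, 2 of 10 spindle genes, 2 of 7 midzone and cytokinesis genes, 1 of 9 entry regulators, 1 of 3 anaphase genes and MKI67. MKI67 stood at 5611 and 4011 in TAM Ctrli and 2539 and 2568 in JUNBi, PLK1 at 776 and 753 against 422 and 448, and CDC20 at 1961 and 2030 against 1369 and 1493. CCNB1 (2237 and 2025 in JUNBi), CDK1 (1470 and 1038), AURKA (1085 and 1020), TOP2A (6428 and 5291), FOXM1 (427 and 439), BUB3 (2561 and 2239) and CDC25B (525 and 606) were not called, and among these CDK1 and BUB3 overlapped their controls. The count was 5 with edgeR or in 1 fit over all groups, 4 with the block, 0 without Ctrli replicate 1 or JUNBi replicate 2, and 1 without Ctrli replicate 2 or JUNBi replicate 1.

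In ETH, 12 of 45 fell with JUNBi and none rose, where 2.76% of 15234 tested genes were called and 1.59% fell. The median was -0.87, against 0.017 over all genes tested, and all 45 estimates were below 0. The 10 largest falls among the called genes were in MKI67 (-1.29, SE 0.23), AURKB, the passenger complex kinase that corrects faulty attachments (-1.23, SE 0.29), PRC1 (-1.23, SE 0.23), INCENP (-1.22, SE 0.26), CCNB1 (-0.996, SE 0.23), KIF20A (-0.99), BIRC5 (-0.99), NEK2 (-0.96), KIF2C (-0.95) and BUB1 (-0.95), so that 3 of 3 passenger complex genes fell. CCNB1 stood at 3645 and 3211 in Ctrli and 1877 and 1594 in JUNBi, and MKI67 at 5019 and 4576 against 2207 and 1743. CDK1 (1148 and 681), PLK1 (381 and 425), AURKA (858 and 748), CDC20 (1380 and 1909), TOP2A (5274 and 3334), FOXM1 (320 and 348) and BUB3 (2205 and 2026) lay below both controls and were not called, and CDC25B (520 and 697) overlapped them. The median was -0.75 within replicate 1, where JUNB stood at 3.90 TPM, and -0.98 within replicate 2, where it stood at 8.55 TPM. The larger fall was thus in the library with the weaker knockdown. Here the SEs were larger than in YAPi, 0.22 to 0.47 per gene. edgeR called 0 of the 45 in ETH, with 42 at an unadjusted p under 0.05 in DESeq2. The DESeq2 count was 25 with the block, 28 in 1 fit over all groups, 39 without JUNBi replicate 1, 21 without JUNBi replicate 2 and 0 without either Ctrli library. The 7 genes lower under both treatments were BIRC5, INCENP, KIF20A, KIF2C, MKI67, NEK2 and PRC1 (77.8% of the TAM list, 58.3% of the ETH list). The interaction with TAM called 0 of 45 in DESeq2 and 0 in edgeR, where 0.287% of 16037 genes were called, with a median of 0.45, 44 of 45 estimates above 0 and 9 genes at an unadjusted p under 0.05. The smallest were CKS2, a CDK-binding protein (0.85, SE 0.26, unadjusted p = 0.00115 in DESeq2), PRC1 (0.57, SE 0.23) and CCNB1 (0.56, SE 0.24). Without ETH JUNBi replicate 1 this interaction called 13 members.

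STAT3 knockdown moved 1 of the 45 past the threshold under TAM and none in ETH. Under TAM the median was -0.08, against 0.025 over all genes tested, and only MKI67 passed the test, at 5611 and 4011 in Ctrli and 3022 and 3569 in STAT3i (-0.53, SE 0.16, adjusted p = 0.00948 in DESeq2), where 8.09% of 14470 genes were called and 4.80% fell. No member was called with edgeR, with TMM size factors, with the block, or without Ctrli replicate 1, STAT3i replicate 1 or STAT3i replicate 2, and 3 were called in 1 fit over all groups. CCNB1 stood at 2727 and 2374 against 2750 and 3002 in Ctrli, CDK1 at 1753 and 1315 against 1362 and 1512, and TOP2A at 6406 and 5003 against 6575 and 6866. CDK1 overlapped its controls, and the log2 fold change was -0.15 (SE 0.13) for CCNB1 and -0.21 (SE 0.13) for TOP2A. PLK1 (433 and 567) and CDC25B (414 and 503) lay lower than both controls with adjusted p-values of 0.0188 and 0.0135 in DESeq2. AURKA was 1323 and 1218, CDC20 was 1458 and 1726, FOXM1 was 417 and 548 and BUB3 was 2936 and 2609 in STAT3i. In ETH, 0 of 45 were called by DESeq2 and 0 by edgeR, 3 had an unadjusted p under 0.05, and the median was 0.13, against 0.001 over all genes tested, where 0.201% of 18444 genes were called. The 3 were CDK1 at 2116 and 1745 against 1610 and 1372 (0.38, SE 0.18), CCNA2 (0.38, SE 0.16) and MKI67 at 4041 and 3452 against 5019 and 4576 (-0.35, SE 0.16). In ETH STAT3i, CCNB1 was 3976 and 3513, PLK1 was 621 and 779, AURKA was 1715 and 1577, CDC20 was 1997 and 2900, TOP2A was 8036 and 6022, FOXM1 was 514 and 649, BUB3 was 3020 and 2918 and CDC25B was 505 and 596. The interaction called 0 of 45 in DESeq2 and 0 in edgeR, where 1.40% of 15885 genes were called, with a median of -0.26, 41 of 45 estimates below 0 and 2 at an unadjusted p under 0.05. The smallest were KIF14 (-0.55, SE 0.24), PLK1 (-0.59, SE 0.28) and BIRC5 (-0.34, SE 0.20).

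**Figure D4:**
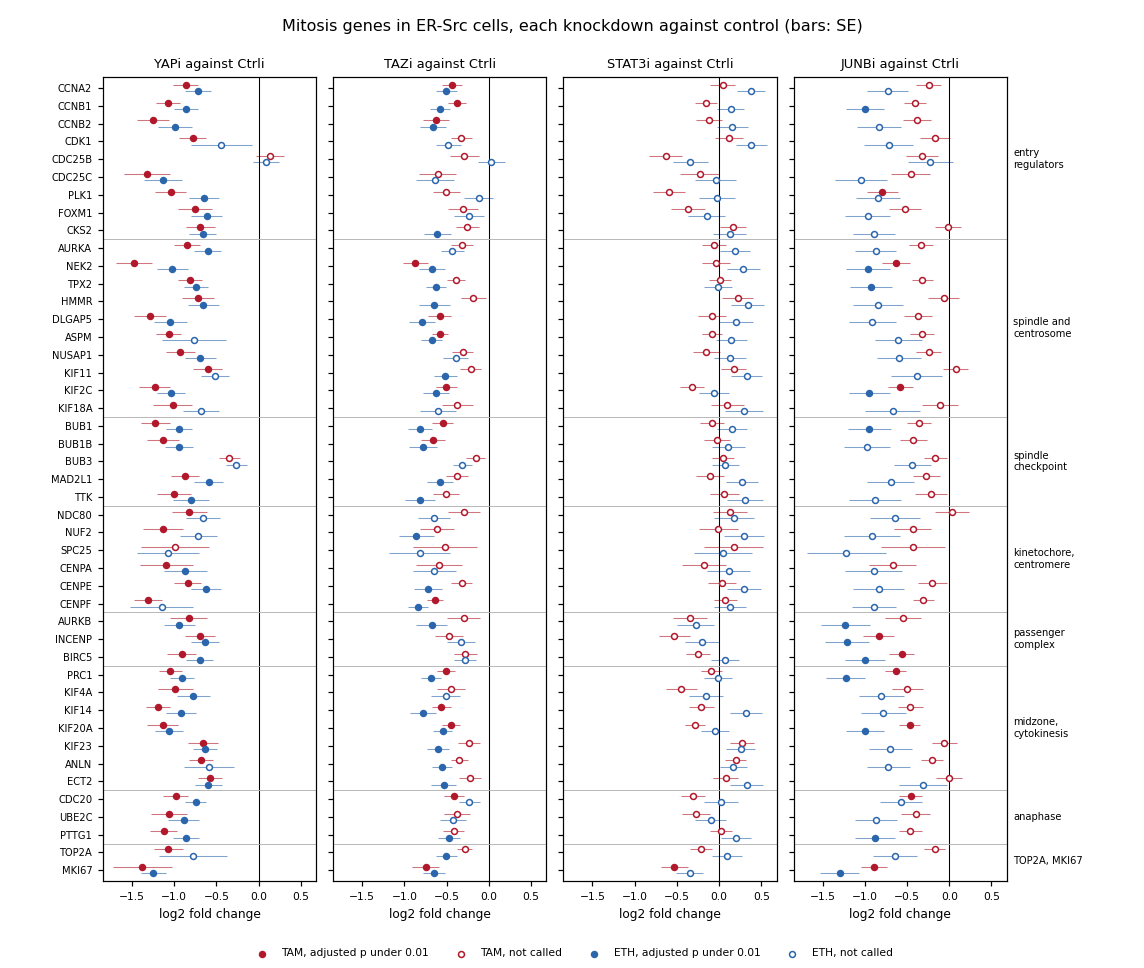
Log2 fold change (horizontal axis) with its SE (bar) of each mitosis gene (rows) for YAPi, TAZi, STAT3i and JUNBi against Ctrli in ER-Src cells, red under TAM and blue under ETH, filled where the adjusted p was under 0.01. Under TAM 42 YAPi points are filled against 15 for TAZi, 9 for JUNBi and 1 for STAT3i.

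TAM, which activates v-Src, was compared with ETH in cells with the control siRNA. With the control siRNA, 3 of 45 fell and none rose, where 6.11% of 15934 tested genes were called and 1.56% fell. The median was -0.14, against -0.011 over all genes tested. HMMR stood at 1337 and 1171 in ETH and 865 and 892 in TAM (-0.50, SE 0.15, adjusted p = 0.00934 in DESeq2). ANLN stood at 5117 and 4479 against 3759 and 3608 (-0.37, SE 0.11) and CENPF at 10841 and 10176 against 8369 and 8223 (-0.33, SE 0.09). In each of the 3 the treatments did not overlap. CDK1 (1610 and 1372 against 1362 and 1512), PLK1 (750 and 682 against 776 and 753), MKI67 (5019 and 4576 against 5611 and 4011) and TOP2A (7093 and 6200 against 6575 and 6866) had log2 fold changes between -0.04 and 0.11. In TPM, CDK1 stood at 45.25 and 32.9 in ETH Ctrli and at 27.56 and 28.66 in TAM Ctrli. PLK1 stood at 20.45 and 16.34 against 15.32 and 11.01, and ANLN at 109.56 and 82.13 against 43.86 and 36.15. MKI67 (16.2 and 13.1 against 18.03 and 14.74) and TOP2A (54.11 and 39.99 against 42.25 and 43.87) overlapped in TPM. Why TPM and normalised counts differ was not tested. The median was -0.24 within replicate 1 and -0.08 within replicate 2. No member was called with edgeR, with the block or without any 1 of the 4 libraries.

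In MDA-MB-231 set 1 the knockdowns were compared with each other. YAPi_TAZi lay below both single knockdowns for most of the list. CDK1 stood at 165 and 267 normalised counts in YAPi, 241 and 252 in TAZi, 53.0 and 70.2 in YAPi_TAZi and 70.2 and 112 in TEADi. CCNB1 stood at 302 and 330, 469 and 468, 211 and 213, and 197 and 182 in the same order. TOP2A stood at 951 and 1232 in YAPi and 1023 and 1167 in TAZi, against 329 and 375 in YAPi_TAZi and 401 and 429 in TEADi. For these 3 genes every YAPi_TAZi and TEADi library lay below every library with a single knockdown. PLK1 was 48.5 and 47.0 in YAPi, 68.1 and 57.3 in TAZi, 15.0 and 30.4 in YAPi_TAZi and 20.4 and 17.2 in TEADi. AURKA was 279 and 293, 332 and 362, 218 and 191, and 165 and 155. CDC20 was 162 and 146, 226 and 185, 80.2 and 65.5, and 86.8 and 66.1, and FOXM1 was 114 and 96.5, 127 and 110, 53.0 and 72.1, and 56.1 and 49.8. MKI67 was 354 and 366, 292 and 348, 136 and 159, and 160 and 156. BUB3 was 520 and 530, 528 and 606, 389 and 378, and 394 and 368. For these too, all 4 libraries of YAPi_TAZi and TEADi lay below all 4 with a single knockdown. CDC25B did not follow, at 98 and 101, 51.1 and 54.5, 77.5 and 54.1, and 81.7 and 69.6.

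Against YAPi, 20 of 41 tested members fell in YAPi_TAZi and none rose, where 4.82% of 8407 genes were called and 3.41% fell, and the median over the 45 was -1.13, against -0.019 over all genes tested. The 10 largest falls among the called genes were in PRC1 (-1.98, SE 0.29), CDK1 (-1.81, SE 0.35), AURKB (-1.74), CCNB2 (-1.68), TOP2A (-1.64, SE 0.17), BUB1B (-1.48), MAD2L1 (-1.45), ANLN (-1.45), CCNA2 (-1.44) and KIF23 (-1.44). Against TAZi, 34 of 43 fell, where 6.77% of 10205 genes were called and 4.59% fell, with a median of -1.32, against 0.00. CDK1 (-1.996, SE 0.245), CCNA2, cyclin A2 (-1.96, SE 0.19), AURKB (-1.96), UBE2C, the E2 enzyme of the anaphase-promoting complex (-1.96, SE 0.22), KIF23 (-1.85), KIF14 (-1.77), NUF2 (-1.77), TOP2A (-1.65), KIF2C (-1.52) and CDC20 (-1.51) led among the called genes. Within replicate 1 and replicate 2, which are also the libraries of 48.0 and 74.6 bases, the medians were -1.11 and -1.19 against YAPi and -1.25 and -1.35 against TAZi. In replicate 1 WWTR1 was little lower in YAPi_TAZi (4.34 TPM) than in YAPi (4.76 TPM), so the TAZ part of that fall is uncertain. Against YAPi the count was 15 without YAPi replicate 1, 8 without YAPi replicate 2 and 7 without either YAPi_TAZi library, while the block gave 27. Against TAZi it was 6 without TAZi replicate 2 and 21 to 22 without any other 1 library, and 21 with offsets for the effective lengths.

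TEAD knockdown also lowered mitosis genes against each single knockdown. Against YAPi, 15 of 41 tested members fell and none rose, where 3.93% of 9211 genes were called and 2.36% fell, with a median of -1.05, against 0.002. The largest falls among the called genes were in BIRC5 (-1.46), the chromokinesin KIF4A (-1.42), TOP2A (-1.41, SE 0.17), ASPM (-1.36, SE 0.22), KIF2C (-1.35), KIF11 (-1.28), BUB1 (-1.28), CDK1 (-1.25), CENPF (-1.24) and CCNA2 (-1.23). Against TAZi, 32 of 45 fell and none rose, where 8.19% of 11056 genes were called and 4.40% fell, with a median of -1.28, against 0.018. Here BIRC5 (-1.93, SE 0.28), NEK2 (-1.80), PLK1 (-1.75), CCNA2 (-1.74), KIF2C (-1.71), KIF20A (-1.66), UBE2C (-1.64), KIF4A (-1.57), AURKB (-1.51) and ASPM (-1.51) led among the called genes. CDC25B (0.51, SE 0.33) and PRC1 (-0.24, SE 0.23) were among those not called. Within replicates the medians were -0.93 and -1.15 against YAPi and -1.25 and -1.29 against TAZi. With the replicate number as a block, which here separates the libraries of 48.0 and 74.6 bases, 25 members fell against YAPi. Against YAPi the count was 7 without TEADi replicate 1 and 4 without any other 1 library, and against TAZi it was 11 without TAZi replicate 1, 6 without TAZi replicate 2, 22 without TEADi replicate 1 and 21 without TEADi replicate 2.

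TEADi and YAPi_TAZi were compared directly. 0 of 41 tested members were called by DESeq2 and 0 by edgeR, where 4.46% of 10004 genes were called, 1 had an unadjusted p under 0.05, and the median was 0.09, against 0.028. That gene was PRC1, at 147 and 132 in TEADi and 77.5 and 66.4 in YAPi_TAZi (0.96, SE 0.28, unadjusted p = 0.00057 and adjusted p = 0.0121 in DESeq2), followed by CCNB2 (0.76, SE 0.43) and BIRC5 (-0.64, SE 0.36). TAZi against YAPi called 0 of 41 in DESeq2 and 0 in edgeR, where 1.96% of 7262 genes were called. Of all 45 members, tested or not, 8 had an unadjusted p under 0.05, and the median was 0.16, against -0.036. The smallest p-values were those of PRC1, at 183 and 147 in TAZi and 272 and 289 in YAPi (-0.79, SE 0.24, adjusted p = 0.0343 in DESeq2), CCNB1 (0.56, SE 0.18) and UBE2C (0.66, SE 0.22). With the block 2 members passed here, 1 of them higher in TAZi. PRC1 shares 57.6% of its exon bases with other annotated genes on the same strand, NUSAP1 86.8% and BUB1B 10.2%, so their reads may be split between genes, and FOXM1 (15.9%) and PLK1 (12.8%) overlap genes of the opposite strand. These 6 comparisons share libraries, so their overlap is not given.

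**Figure D5:**
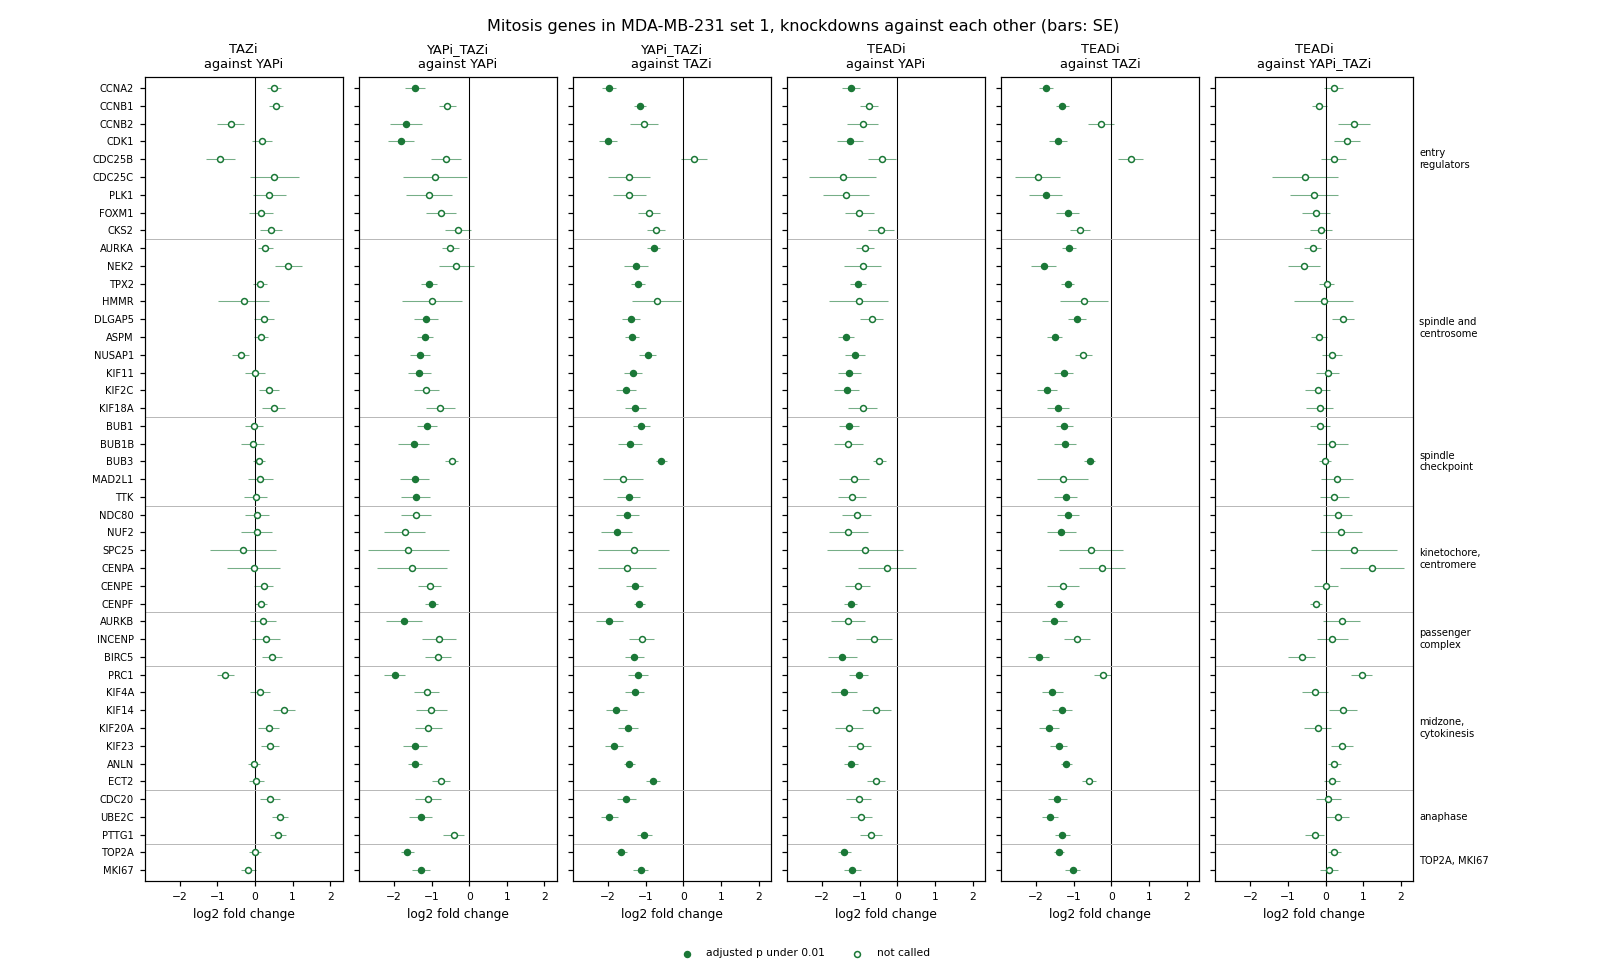
Log2 fold change (horizontal axis) with its SE (bar) of each mitosis gene (rows) for the 6 pairs of set 1 knockdowns in MDA-MB-231, filled where the adjusted p was under 0.01. YAPi_TAZi and TEADi lie to the left of 0 against YAPi and against TAZi for most genes, with medians from -1.05 to -1.32, while TEADi against YAPi_TAZi and TAZi against YAPi scatter around 0.

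In set 2, JUNBi and STAT3i passed the test for no member. With JUNBi, 0 of 41 tested were called by DESeq2 and 0 by edgeR, where 3.99% of 7187 genes were called. Of all 45 members, tested or not, 13 had an unadjusted p under 0.05, and the median was 0.22, against -0.016. FOXM1 stood at 1213 and 2330 in Ctrli and 898 and 949 in JUNBi (-0.94, SE 0.27, adjusted p = 0.0106 in DESeq2), BIRC5 at 2684 and 3837 against 2132 and 1831 (-0.71, SE 0.21) and KIF23 at 268 and 199 against 417 and 418 (0.84, SE 0.28). CCNB1 was 2585 and 1967 in Ctrli and 2557 and 2610 in JUNBi, CDK1 610 and 618 against 665 and 651, PLK1 1370 and 1240 against 1247 and 1259, CDC20 4113 and 4568 against 3399 and 2885, AURKA 2022 and 1608 against 1658 and 1761, TOP2A 1054 and 943 against 1370 and 1235, MKI67 3200 and 3705 against 2667 and 2719, BUB3 1574 and 1324 against 1586 and 1469, and CDC25B 1466 and 1906 against 1861 and 1807. Groups overlapped for CCNB1, PLK1, AURKA, BUB3 and CDC25B. Without Ctrli replicate 3 the JUNBi comparison called 3 members. With STAT3i, 0 of 32 tested were called by DESeq2 and 0 by edgeR, where 0.237% of 4639 genes were called. Of all 45 members, 1 had an unadjusted p under 0.05, and the median was 0.10, against -0.050. The smallest p-values were those of TTK, at 75.4 and 45 against 154 and 119 (1.18, SE 0.49), ASPM (0.59, SE 0.32) and BIRC5 (-0.36, SE 0.20). Independent filtering left TTK and ASPM out of the 32, so DESeq2 could not call them. STAT3i libraries held CCNB1 at 2276 and 2777, CDK1 at 718 and 694, PLK1 at 954 and 1242, CDC20 at 3487 and 3711, AURKA at 1632 and 1876, TOP2A at 1144 and 1159, MKI67 at 3009 and 3129, FOXM1 at 1319 and 1662, BUB3 at 1534 and 1766 and CDC25B at 1607 and 1578. Without Ctrli replicate 3 this comparison called 1 member.

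Related genes outside the list were counted in the same fits. Of 54 other mitotic genes, 31 fell and none rose with YAPi in TAM (median -0.77), led by the spindle protein PSRC1 (-1.71, SE 0.27), citron kinase CIT (-1.38, SE 0.19) and the centromere protein CENPM (-1.38, SE 0.27), and 30 fell in ETH. TAZi lowered 11 in TAM and 22 in ETH, and JUNBi 8 and 10, where CDCA5, the cohesin protector sororin, fell by 1.17 (SE 0.21) in TAM and by 1.89 (SE 0.28) in ETH on the log2 scale. CDCA5 also fell with JUNBi in set 2, by 1.51 (SE 0.22). Over all genes tested, 5.54% and 6.36% fell with YAPi in TAM and ETH, 1.74% and 2.78% with TAZi and 3.95% and 1.59% with JUNBi. With edgeR, 28 and 20 of the 54 were called for YAPi in TAM and ETH, 2 and 10 for TAZi, 10 and 0 for JUNBi, and 0 for JUNBi in set 2, CDCA5 included. In set 1, 35 of the 54 fell in YAPi_TAZi and 35 in TEADi against TAZi, where 4.59% and 4.40% of all genes tested fell. Against YAPi, 14 and 17 fell, where 3.41% and 2.36% of all genes tested fell. Of 15 subunits of the anaphase-promoting complex, YAPi in TAM lowered ANAPC11 (-0.59, SE 0.17) and raised ANAPC13 (0.84, SE 0.22), with a median of -0.06. The share called was near that of all genes tested, of which 10.9% were called in either direction. None of the subunits was called in set 1.

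Of 28 DNA replication genes, 8 fell with YAPi in TAM and 11 in ETH, with thymidylate synthase TYMS at -1.23 (SE 0.22) and -1.44 (SE 0.21), while in set 1 20 fell in YAPi_TAZi and 21 in TEADi against TAZi. Over all genes tested, 5.54% and 6.36% fell with YAPi in TAM and ETH, and 4.59% and 4.40% in these set 1 comparisons. Against YAPi, 12 of the 28 fell in YAPi_TAZi and 11 in TEADi, where 3.41% and 2.36% of all genes tested fell. In ETH, TAZi lowered 4 and JUNBi 5, where 2.78% and 1.59% of all genes tested fell. For these, edgeR called 1 and 0. With TAZi or JUNBi in TAM, 0 of the 28 fell. TAM against ETH lowered 4 of the 28, PCNA first (-0.59, SE 0.12), where 1.56% of all genes tested fell and edgeR called 1 of the 28. Of 17 DREAM and MuvB regulators, 5 fell with YAPi in TAM and none rose, and in TEADi against TAZi 1 fell and 3 rose. MYBL2, which encodes B-MYB, fell by 0.90 (SE 0.14) with YAPi and by 0.74 (SE 0.15) with JUNBi under TAM on the log2 scale. Of 8 CDK inhibitors, 6 were tested in ER-Src cells, and the list's median was -0.18 with YAPi in TAM and -0.30 in ETH. CDKN3, a phosphatase that acts on CDKs, fell with YAPi in TAM (-1.43, SE 0.21) and ETH (-0.77, SE 0.20) and with TAZi in ETH (-0.72, SE 0.20), and CDKN2C fell in TEADi against TAZi (-1.57, SE 0.44). CDKN1A, which encodes p21, rose with YAPi in TAM (1.17, SE 0.17) and ETH (1.23, SE 0.32), with TAZi in TAM (0.61, SE 0.14) and ETH (0.76, SE 0.15), and against TAZi in YAPi_TAZi (1.40, SE 0.15) and TEADi (1.45, SE 0.15). With edgeR no CDK inhibitor was called for TAZi in TAM. CDKN1C, which encodes p57, rose with STAT3i in TAM (3.29, SE 0.33), where 8.09% of all genes tested were called. With JUNBi in ETH, 1 CDK inhibitor was called higher by DESeq2 and 0 by edgeR, where 2.76% of all genes tested were called. In TEADi against TAZi, DESeq2 called 2 of 6 tested higher and 1 lower, and edgeR called 3. There 8.19% of all genes tested were called. The mitosis medians in these comparisons were -0.08, -0.87 and -1.28. How the CDK inhibitor calls bear on them was not tested. The largest CDK inhibitor estimate was 2.71 with JUNBi in ETH and 2.705 in TEADi against TAZi.

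The changes were also set beside the promoter letters. With YAPi in TAM the median log2 fold change was -1.03 over the 28 genes with CHR letters and -1.003 over the 10 without, and in YAPi_TAZi against TAZi it was -1.307 and -1.502. These medians are a description over genes that share their libraries. CDC25B, which did not fall in any of these, was among the 5 matched genes with neither CHR nor CCAAT letters. The others of the 5, CDC25C, KIF2C, NDC80 and NUF2, all fell with YAPi in TAM.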

How the data were processed

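Per the study's methods, RNA-seq libraries of MCF-10A ER-Src and MDA-MB-231 cells were made with the TruSeq Ribo Profile kit, reads were trimmed and aligned with STAR to the GENCODE v30 transcriptome (hg38), and genes were quantified with RSEM. The STAR and RSEM versions are not given in the sources used here. The authors deposited for each library RSEM's expected counts (estimated and not normalised), TPM, and gene length and effective length. Of 61471 identifiers, the 60725 Ensembl genes were tested.

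Each comparison, on expected counts made whole by rounding, was fitted over all genes in its own DESeq2 run (version 1.42.0, R 4.3.3) with median-of-ratios size factors, the Wald test and independent filtering. Genes were called at a Benjamini-Hochberg adjusted p under 0.01. Normalised counts are expected counts divided by the size factors of the ER-Src libraries, the set 1 knockdowns or set 2. Ratios within a replicate used log2(normalised count + 0.5). The 21 comparisons share an adjustment only within themselves. Alternatives were the quasi-likelihood test of edgeR 4.0.16, size factors by TMM, a mean count of at least 10 with no independent filtering, offsets from effective lengths, 1 joint fit of every group in the ER-Src cells or in a set, the replicate number as a block, and leaving out each library. The fits were tested on simulated data.

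The 45 genes and the related lists were chosen with earlier results of these data known. Named are, in every comparison, CDK1, CCNB1, PLK1, CDC20, AURKA, TOP2A, MKI67, FOXM1, BUB3 and CDC25B by library, the called members up to 10 by size of change, and, where none was called, the 3 with the smallest unadjusted p. Gene models and overlaps came from a later GENCODE release on GRCh38, promoters from RefSeq. Intervals of counting error were not used, since the spread between libraries enters each SE.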

Additional observations from a re-analysis of the deposited data

Results flagged for a closer look

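With JUNBi, the members' median of normalised counts lay below the controls in every ER-Src library and above them in both MDA-MB-231 libraries. The difference between the cell lines was not tested. In MDA-MB-231 0 of 41 tested members were called, and 12 of 45 estimates were below 0. The members' median log2 deviation from the controls was -0.40 in TAM JUNBi and 0.19 in MDA-MB-231, a difference of -0.59, and in ETH JUNBi it was -0.83, a difference of -1.02. TOP2A lay lower than its controls by -0.20 (TAM) and -0.63 (ETH) in ER-Src and higher by 0.38 in MDA-MB-231, which makes differences of -0.58 and -1.01. CDK1 in ETH JUNBi lay at -0.70 against 0.10 in MDA-MB-231, a difference of -0.80.

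With STAT3i, TOP2A lay at -0.24 in ER-Src TAM and 0.21 in MDA-MB-231, a difference of -0.44, also not tested. The ER-Src libraries and set 2 are different library kinds, with 9.43 to 11.7% against at most 0.0112% of counts in RNAs without a poly(A) tail, and the part of this in the differences was not tested. Groups hold 2 libraries, too few for a check of single outlying libraries.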

How the results depend on the processing

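The falls with YAPi under both treatments, and in YAPi_TAZi and TEADi against YAPi or TAZi, kept a negative median under every alternative. In TAM TAZi the count (15) was 5 with edgeR, 4 with the replicate block and 0 in 1 fit over all groups, and the median was -0.39 with TMM and -0.37 with effective-length offsets. In TAM STAT3i it was 0 with TMM, edgeR or the block, 2 (1 higher) with length offsets, and 3 in 1 fit or with the count filter. In TAM JUNBi it was 5 with edgeR, 1 fit or length offsets and 4 with the block. In ETH, edgeR called 21 for YAPi, 11 for TAZi and 0 for JUNBi. 1 fit called 5 for TAZi and 28 for JUNBi, and the block 18 and 25. For TAM against ETH, edgeR, 1 fit and the block each called 0. Length offsets called 1 in the TAZi interaction and 21 in YAPi_TAZi against TAZi, with medians of -1.21 there, -1.02 against YAPi and 0.02 for TEADi against YAPi_TAZi. TEADi against YAPi gave 27 in 1 fit and 25 with the block, TAZi against YAPi 2 (1 higher) in each, and TEADi against YAPi_TAZi 1 in 1 fit. Set 2 JUNBi gave 2 in 1 fit and 1 with length offsets. The cause of these moves was not tested.

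Leaving out 1 library leaves a lone sample that is assumed to vary like the others. Counts then ran from 16 to 36 for YAPi, 1 to 3 for TAZi, 0 to 1 for STAT3i and 0 to 1 for JUNBi in TAM, from 3 to 37, 1 to 20 and 0 to 39 for YAPi, TAZi and JUNBi in ETH, and were 0 to 0 for TAM against ETH. They were 0 to 13 for the JUNBi interaction, 7 to 15 and 6 to 22 for YAPi_TAZi against YAPi and TAZi, 4 to 7 and 6 to 22 for TEADi against YAPi and TAZi, and 0 to 3 and 0 to 1 for JUNBi and STAT3i in set 2. Medians ran in TAM from -1.16 to -0.77 (YAPi), -0.43 to -0.39 (TAZi), -0.18 to 0.04 (STAT3i, above 0 without STAT3i replicate 2) and -0.46 to -0.28 (JUNBi), and in ETH from -1.03 to -0.50, -0.69 to -0.49, 0.03 to 0.29 and -1.06 to -0.66. They ran from -0.24 to -0.08 for TAM against ETH, and for the interactions from -0.44 to 0.07 (YAPi), 0.06 to 0.24 (TAZi), -0.35 to -0.10 (STAT3i) and 0.24 to 0.68 (JUNBi). In set 1 they ran from 0.04 to 0.31 (TAZi against YAPi), -1.31 to -1.10 and -1.40 to -1.21 (YAPi_TAZi against YAPi and TAZi), -1.24 to -0.96 and -1.37 to -1.09 (TEADi against YAPi and TAZi) and 0.04 to 0.17 (TEADi against YAPi_TAZi), and in set 2 from 0.15 to 0.22 (JUNBi) and 0.05 to 0.23 (STAT3i). Of 103 calls of single genes, taken 618 times over the other alternatives, 523 held and 95 were lost, and over 412 leave-outs 219 were lost. None changed sign.

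Deviations of same-numbered libraries correlated at -0.043 to 0.206 in ER-Src comparisons of 2 groups. Between the groups of the ER-Src interactions they correlated at -0.033 to 0.303. In set 1 the values were 0.470 to 0.518, where the number also separates the libraries of 48.0 and 74.6 bases. Each comparison of 2 groups has 2 such pairs and no label gives a shared batch, so the main tests use no block. In set 1 the block called 27 and 35 members in YAPi_TAZi against YAPi and TAZi, and 25 and 35 in TEADi. In set 2 no paired analysis was possible because the controls carry other replicate numbers. Set 1 knockdowns held 1411304 to 2784605 counts, and members under about 20 normalised counts, such as SPC25 and HMMR, had SEs that leave large differences undetected.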
